A study of Homo sapiens with 5 samples.

Results

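HIF1A and 9 genes that it is known to switch on when oxygen is low were followed across 5 transcriptomes of HT1080 cells. HT1080 is a human fibrosarcoma cell line. The genes were chosen by symbol and were HIF1A, VEGFA, CA9, NDRG1, BNIP3, ADM, P4HA1, PLOD2, EGLN3 and ANKRD37. Of these 10 genes, 8 were matched by symbol among the 27189 genes of the count tables. CA9 and BNIP3 were not analysed here. Among 21163 genes that reached 1 TPM (transcripts per 1e+06, a level per length) in at least 1 library, 7 were members, and ADM was the measured member that did not reach it.

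The cells were embedded in type I collagen at 2 mg/ml and sequenced as 1 library per condition, so no value has a replicate error and no test between conditions was possible. The low-density library (LD) came from untreated cells at 10 cells per cubic mm. The IL-6 and IL-8 libraries came from cells at that same density given one of these recombinant cytokines. RM came from cells at that density given both, in a 5:2 ratio of IL-6 to IL-8. The time was 24 h in every condition. The high-density library (HD) came from untreated cells at 50 cells per cubic mm. All conditions shared the cell line, the collagen and the medium, and all comparisons with LD share the 1 LD library. Neither oxygen nor HIF-1α protein was among the measurements analysed here.

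HIF1A encodes the α subunit of a transcription factor that is made continuously and destroyed while oxygen is present. Prolyl hydroxylases of the EGLN family mark the protein with oxygen as a substrate, the VHL ubiquitin ligase removes it, and low oxygen lets it pair with ARNT and bind short motifs near its targets. This control acts on the protein, so the transcript level of HIF1A is not a reading of HIF activity. Among the targets, VEGFA and ADM encode secreted factors that act on vessels, P4HA1 and PLOD2 encode hydroxylases that modify collagen, and EGLN3 encodes one of the enzymes that mark HIF. NDRG1 is a stress and differentiation gene, ANKRD37 encodes a small ankyrin repeat protein, CA9 a surface carbonic anhydrase and BNIP3 a mitochondrial protein of mitophagy.

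Depth set how much could be seen of these genes. The 4 low-density libraries held 5096134 to 7118545 reads and HD held 926376. The ribosomal gene RNA5-8S5 took 76.9 to 79.6% of the reads at low density and 51.5% in HD. Reads are therefore given per 1e+06 reads outside RNA5-8S5 (RPM below). There were 1100967 to 1645539 such reads at low density and 449661 in HD. Intervals are exact 95% Poisson or binomial limits and cover counting error only. A count of 0 allows up to 3 reads, which is 1.82 to 2.72 RPM in the low-density libraries and 6.67 RPM in HD. Series of 5 values run from LD through IL-6, IL-8 and RM to HD, which is called library order.

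HD also stood apart in what it contained. It had reads on 20113 genes against 13469 to 15080 in the other libraries. Of 386 olfactory receptor genes, which fibrosarcoma cells are not known to use, 240 had a read in HD and 14 to 37 elsewhere, with a summed level of 6095 TPM against 16.2 to 77.4 TPM. All 7 leukocyte markers had a read in HD against 2 or 3 elsewhere, with a summed level of 306 TPM against 147 to 169 TPM. CD68 made up most of the low-density sums and was lower in HD, with 159, 163, 165, 145 and 73.5 TPM in library order. The other 6 were each higher in HD than in any low-density library. Endothelial markers summed to 61.4 TPM in HD, with 4 of 5 read, against 0.511 to 5.85 TPM. The epithelial markers had 7 of 7 genes read in HD and 3 to 5 elsewhere, with sums of 774 TPM and 638 to 906 TPM. The 10 mesenchymal markers, which check the labelled cell type, summed to 5063 to 7637 TPM at low density and to 1095 TPM in HD, and at least 9 of them had a read in each library. The part of these differences in the HD values below was not tested. In these bulk libraries, fewer cells that use a gene and less of its RNA per cell cannot be told apart.

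Each measured member is described by its reads, its TPM and, where a promoter sequence was available, the short HIF-binding core motifs near its start. The motifs searched were ACGTG and GCGTG on either strand, so that they also appear as CACGT and CACGC on the printed strand, and CACGTG counts as 2 overlapping matches. RefSeq promoters of GRCh38.p14 were used for 6 of the 8 measured members (not VEGFA or NDRG1). The 250 bases before the RefSeq start held 3 matches for PLOD2 and for ANKRD37, 1 each for HIF1A (first of its listed starts), P4HA1 and ADM, and 0 for EGLN3. These starts can differ from the gene bounds given below, which are from GENCODE. The 250 bases lie inside those bounds for PLOD2, ANKRD37, ADM and EGLN3, and partly inside them for P4HA1. Of 35116 promoters of that length, 43.2% held at least 1 match and 7.76% held 3 or more. A stretch of 100 bases with the matches in capitals is shown for the 5 of these 6 genes that have a match. The matches begin at -204 in HIF1A, at -213, -200 and -146 in PLOD2, at -162, -161 and -143 in ANKRD37, at -86 in P4HA1 and at -101 in ADM, counted from -1 as the base just before the start. All sequences read 5′ to 3′ toward the gene. The deposited values rest on hg19, so these positions place the sequences and not the reads.
HIF1A chr14:61695309-61695408 (+ strand): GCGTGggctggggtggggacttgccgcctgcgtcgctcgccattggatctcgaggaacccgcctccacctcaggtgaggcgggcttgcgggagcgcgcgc
PLOD2 chr3:146161298-146161397 (- strand): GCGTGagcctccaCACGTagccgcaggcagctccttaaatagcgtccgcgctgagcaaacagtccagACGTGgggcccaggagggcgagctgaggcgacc
ANKRD37 chr4:185396679-185396778 (+ strand): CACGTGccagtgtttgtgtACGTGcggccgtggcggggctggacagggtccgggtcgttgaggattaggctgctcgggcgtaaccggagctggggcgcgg
P4HA1 chr10:73096867-73096966 (- strand): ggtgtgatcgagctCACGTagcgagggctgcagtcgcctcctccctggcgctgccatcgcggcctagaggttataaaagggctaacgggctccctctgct
ADM chr11:10304972-10305071 (+ strand): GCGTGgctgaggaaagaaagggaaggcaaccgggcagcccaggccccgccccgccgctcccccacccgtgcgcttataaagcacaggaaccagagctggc

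The HIF1A transcript was most abundant in LD and lower in every other library. The gene lies on the plus strand of chromosome 14, from 61695513 to 61748259 in GRCh38. It had 237, 90, 95, 50 and 7 reads in library order. Its level was 41.5, 22.9, 22.3, 9.15 and 7.26 TPM. LD was thus highest, the single-cytokine libraries lay close together below it, and RM and HD were lowest.

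In LD, HIF1A stood at 144.0 RPM (95% interval 126 to 164). IL-6 and IL-8 gave 81.7 RPM (65.7 to 100.5) and 84.8 RPM (68.6 to 103.6), RM gave 34.9 RPM (25.9 to 46.0) and HD gave 15.6 RPM (6.26 to 32.1). As a share of the LD value, reads were at 0.568 (0.440 to 0.726) with IL-6 and 0.589 (0.459 to 0.750) with IL-8. They were at 0.242 (0.175 to 0.330) with RM and at 0.108 (0.0430 to 0.226) for HD. None of these 4 intervals reached 1. On the log2(TPM + 1) scale the differences from LD were -0.83, -0.87, -2.07 and -2.36.

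Neighbours in this order were not all separable. IL-8 over IL-6 was 1.037 (0.769 to 1.399), which includes 1. RM lay below both, at 0.426 (0.296 to 0.609) of IL-6 and 0.411 (0.286 to 0.585) of IL-8. HD over RM was 0.447 with a wide interval of 0.171 to 0.990 on 7 reads, and in TPM it was 0.794.

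Other genes shifted too, so HIF1A was placed among them. Over 6756 genes with a mean of at least 20 reads, the median ratio of reads to LD was 1.02 with IL-6, 0.850 with IL-8, 0.754 after both cytokines (RM), and it was 0.403 in HD. Counting intervals that exclude 1 were common, at 44.9%, 60.3%, 67.1% and 79.1% of these genes. Of the 6728 that also had reads in LD, those with a lower ratio than HIF1A made up 10.7% with IL-6, 27.3% with IL-8, 7.33% after both, and 15.4% in HD. HIF1A thus lay toward the low end of the RM and IL-6 comparisons, with 493 and 722 genes below it. The antisense gene HIF1A-AS2 had 0 reads at low density and 1 in HD. The kit does not mark strand, so antisense reads cannot be told apart from those of HIF1A.

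**Figure D1:**
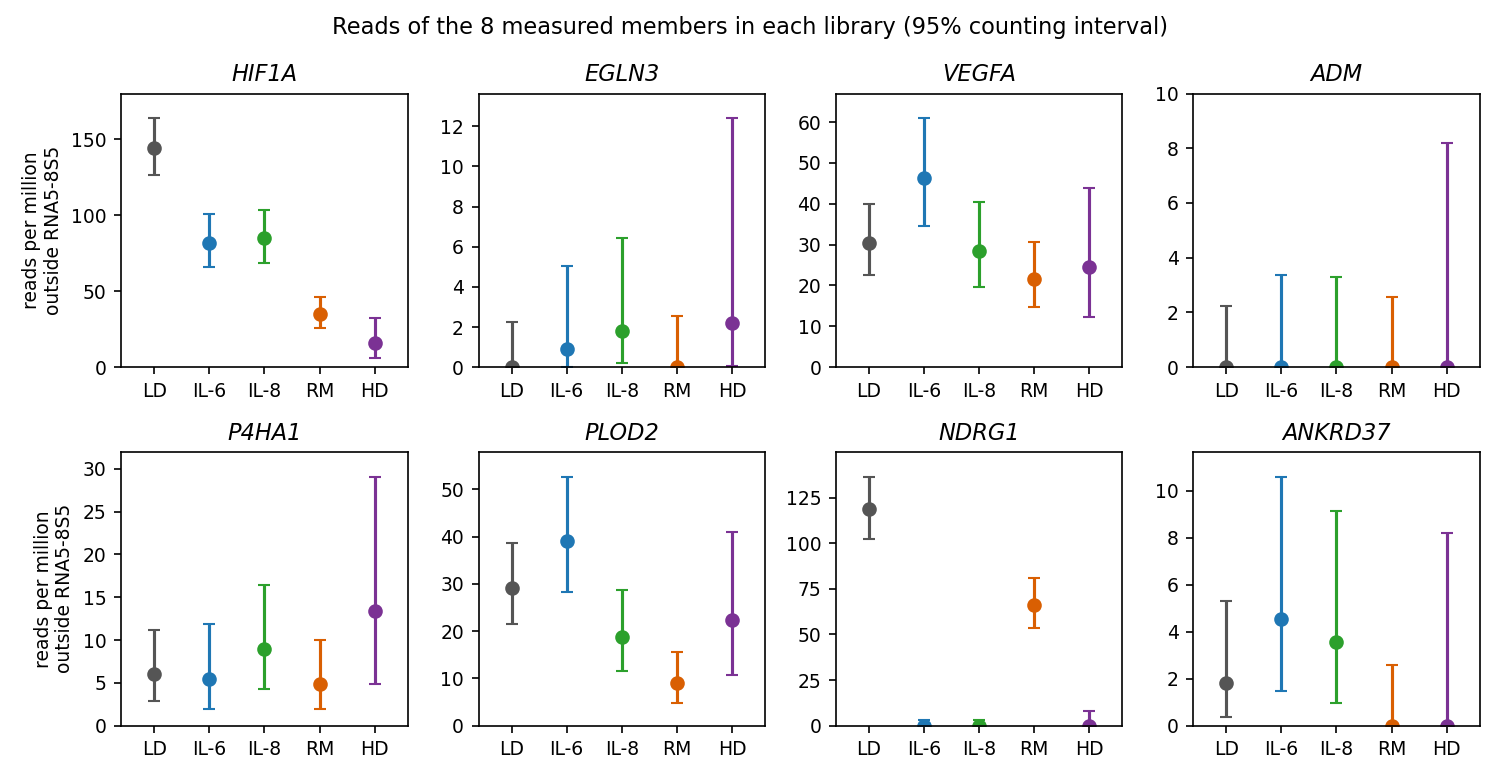
Reads per 1e+06 reads outside RNA5-8S5 (vertical axis) for each of the 8 measured members by library (horizontal axis), with 1 point per library and bars for the 95% Poisson counting interval. HIF1A goes from 144.0 in LD to 15.6 in HD, NDRG1 stands at 118.5 in LD and 66.2 in RM and at 0 elsewhere, and ADM is at 0 in all 5 libraries.

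EGLN3, the oxygen-sensing hydroxylase that is itself a HIF target, was barely read. It lies on the minus strand of chromosome 14, from 33924231 to 34462774 in GRCh38. It had 0, 1, 2, 0 and 1 reads in library order, every one of them at or under the limit that a count of 0 allows. Its level of 1.56 TPM in HD is what passed it through the low-value filter, so its HD minus LD difference of 1.36 on the log2(TPM + 1) scale rests on 1 read.

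Of the secreted factors, VEGFA was read in every library and nowhere differed from LD by as much as 1 log2 unit. The gene for this vessel growth factor lies on the plus strand of chromosome 6, from 43770184 to 43786487 in GRCh38. It had 50, 51, 32, 31 and 11 reads in library order, and 12.0, 15.7, 10.6, 6.56 and 19.5 TPM. RM was lowest both in RPM (21.6) and in TPM, whereas the highest library was IL-6 in RPM (46.3) and HD in TPM.

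The ratio of VEGFA reads to LD was 1.52 (1.01 to 2.298) with IL-6 and 0.940 (0.583 to 1.49) with IL-8. RM gave 0.711 (0.439 to 1.14) and HD 0.805 (0.378 to 1.57). The interval for IL-6 excluded 1 narrowly and those of the other 3 included it. RM over IL-6 was 0.467 (0.289 to 0.743). In log2(TPM + 1) the differences from LD were 0.36, -0.17, -0.78 and 0.65, and the HD difference turned negative when reads instead of TPM were scaled (down to -0.76). Over the 6756 well-read genes, the HD to LD ratio in TPM was a median 1.61 times the ratio in reads.

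ADM, which encodes the vessel-relaxing peptide adrenomedullin, had 0 reads in all 5 libraries. It lies on the plus strand of chromosome 11, from 10304680 to 10307397 in GRCh38. Its level was therefore under the limit a count of 0 allows, and it was not detectable at this depth.

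The collagen-modifying enzymes differed in how well they were read. PLOD2, the lysyl hydroxylase of collagen crosslinks, lies on the minus strand of chromosome 3, from 146069440 to 146163653 in GRCh38. It had 48, 43, 21, 13 and 10 reads in library order, and 8.59, 11.1, 5.24, 2.39 and 12.1 TPM. RM was lowest in TPM and in RPM, and LD and IL-6 were close together.

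PLOD2 in RM was 0.311 (0.154 to 0.583) of LD in reads and -1.50 on the log2(TPM + 1) scale. IL-6 was at 1.34 (0.866 to 2.06), IL-8 at 0.642 (0.365 to 1.09) and HD at 0.762 (0.344 to 1.53) of LD, and these intervals all included 1. The log2 differences were 0.33, -0.62 and 0.45, and the HD one turned to as low as -0.82 when reads were scaled. RM was also below IL-6, at 0.232 (0.114 to 0.440). Scaling by the median ratio over counts brought the RM difference to -0.87, under the threshold of 1.

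P4HA1, a catalytic subunit of the prolyl hydroxylase that stabilises collagen, was low throughout. It lies on the minus strand of chromosome 10, from 73007217 to 73096974 in GRCh38. It had 10, 6, 10, 7 and 6 reads and 2.52, 2.38, 3.67, 1.97 and 7.42 TPM in library order. The TPM of HD stood above the other libraries, with a log2 difference from LD of 1.26, while the ratio of reads was 2.20 with an interval of 0.656 to 6.67. That interval includes 1, as did every other pair of libraries for this gene.

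NDRG1 showed the sharpest contrast of any member. It lies on the minus strand of chromosome 8, from 133237171 to 133302022 in GRCh38. It had 195 reads in LD and 95 in RM but none in the IL-6, IL-8 or HD libraries. Its levels were 65.6 TPM in LD and 33.0 TPM in RM, and LD made it the most abundant member per length, ahead of HIF1A.

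At the LD share, about 130.5 NDRG1 reads would have fallen in IL-6 and 133 in IL-8, and 53.3 in HD. With a floor of 3 reads per library, LD was at least 43.5-fold higher than IL-6, at least 44.3-fold higher than IL-8 and at least 17.8-fold higher than HD. On that floor, RM was at least 24.3-fold, 24.7-fold and 9.93-fold higher than the same libraries. Between the libraries that had reads, RM was 0.559 (0.433 to 0.718) of LD, a log2(TPM + 1) difference of -0.97.

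Such an on and off pattern was rare among well-read genes, in a count made after the NDRG1 values were seen. Of 5605 genes with at least 50 reads in 1 or more low-density libraries, 69 had no read in another of them and 19 had none in at least 2 others. The pattern of at least 50 reads in exactly 2 low-density libraries and none in the other 2 was found in NDRG1 and SRPK3, a muscle protein kinase. SRPK3 had 83, 0, 0, 83 and 12 reads in library order. With 1 library per condition, a difference between the cultures and one between the library preparations cannot be told apart.

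ANKRD37 had few reads in LD, IL-6 and IL-8 and none in RM or HD. It lies on the plus strand of chromosome 4, from 185396021 to 185400628 in GRCh38. In library order it had 3, 5, 4, 0 and 0 reads, or 2.18, 5.86, 4.46, 0 and 0 TPM. Against LD, the IL-6 ratio of reads was 2.49 (0.485 to 16.0) and included 1. RM differed from IL-6 beyond counting error, on 0 against 5 reads and with an upper limit of 0.838 on the ratio. It did not differ from LD, with an upper limit of 2.78. The well-read genes also lay lower in RM than in IL-6, with median ratios to LD of 0.754 and 1.02.

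Counted together, the 7 members that passed the filter were set against the background of all 21163 genes at a threshold of 1 on the log2(TPM + 1) scale. That background depends on depth, since 6896 of the 21163 genes (32.6%), EGLN3 among them, reached 1 TPM in HD alone. The 6756 well-read genes, with a mean of at least 20 reads, are therefore given as a second background, chosen after the values were seen. In IL-6, 1 member was higher than LD (ANKRD37) and 1 lower (NDRG1), where 9.84% of all genes were higher and 7.47% lower. In IL-8, 0 members were higher and 1 was lower (NDRG1), against 7.99% and 16.4% of all genes. EGLN3, on 2 reads, and ANKRD37, on 4 against 3 reads, were the members closest to the upper threshold there.

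In RM, 0 members were higher and 3 were lower (HIF1A, PLOD2 and ANKRD37), against 6.44% higher and 20.4% lower over all genes. The median difference was -0.97 for the 7 members, 0 for all genes and -0.49 for the well-read genes, of which 9.59% were higher and 29.04% lower. NDRG1 at -0.97 lay just inside the threshold. HIF1A and PLOD2 carry the RM count with more than 10 reads each, and ANKRD37 carries it with 3 reads against 0. By TPM scaled to the median ratio, all genes split into 12.9% higher and 11.4% lower in RM and into 12.1% and 10.7% in IL-8, with 2 members lower in RM. HIF1A stayed lower than LD by at least 1.36 on the log2 scale in RM under every scaling, pseudocount and filter tried.

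In HD, 2 members were higher (P4HA1 and EGLN3) and 3 lower (HIF1A, NDRG1 and ANKRD37), against 61.9% and 17.9% of all genes. EGLN3 had to lie higher in HD than in LD, because it passed the filter through HD alone. The size of its difference rests on 1 read against 0. The median difference was 0.45 for the members and 1.86 for all genes but -0.59 for the well-read genes, of which 26.6% were higher and 41.7% lower. The sign of the background in HD thus differed with the genes included, and the members' median lay between both values. TMM-scaled counts gave 38.7% higher and 24.6% lower. HD lay above all 4 low-density libraries by at least 1 for 0 members, where 55.1% of all genes did, and below all 4 by at least 1 for 0 members, where 8.71% did. Of all genes, 32.6% reached 1 TPM in HD alone, which raises the first share, and these shares were not computed for the well-read genes. HIF1A missed the lower count because HD minus RM was -0.30, and P4HA1 came closest to the upper one, at 0.85 above IL-8.

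**Figure D2:**
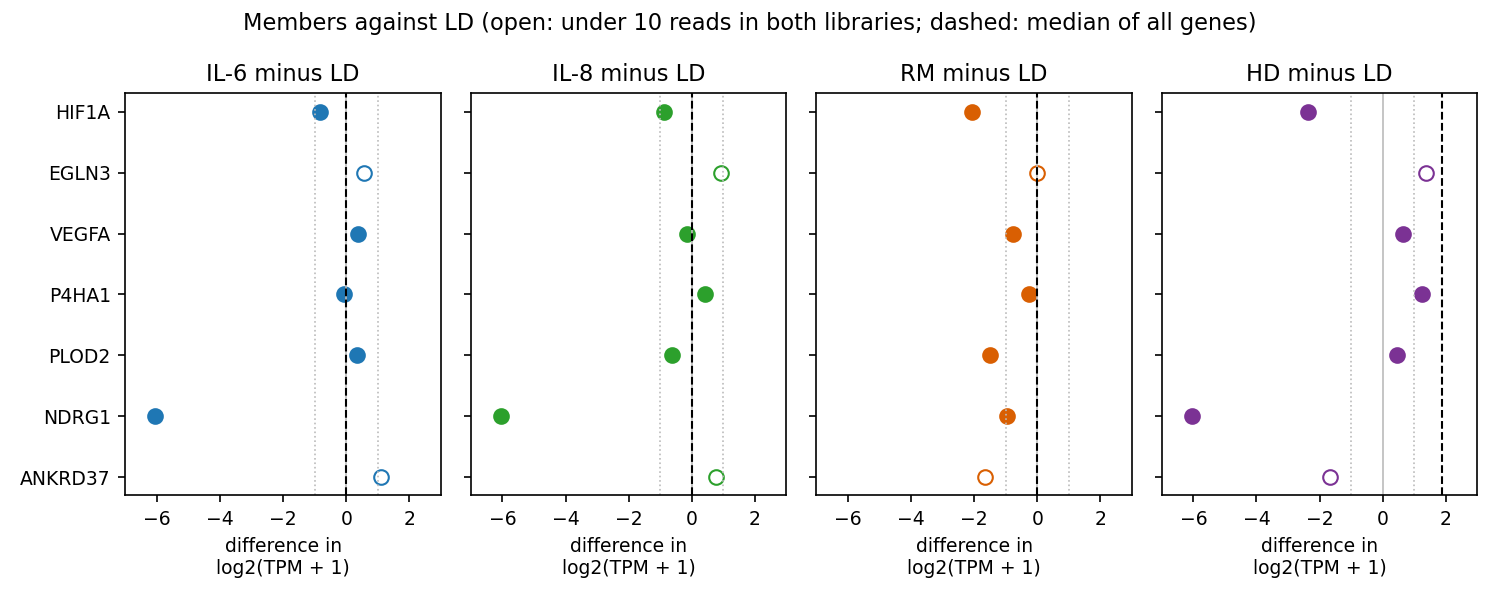
Difference in log2(TPM + 1) between each library and LD (horizontal axis) for the 7 members past the low-value filter (rows). Filled points have at least 10 reads in 1 or both of the libraries and open points fewer, dotted lines mark the threshold of 1 in each direction, and the dashed line is the median of all 21163 genes, at 0 for IL-6, IL-8 and RM and at 1.86 for HD. HIF1A lies at -2.07 in RM and -2.36 in HD, and NDRG1 at -6.06 where it has no read.

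Summed over the 8 measured members, the levels in library order were 330.0, 178, 146, 137 and 77.8 RPM. In TPM the sums were 132, 58.5, 47.2, 53.0 and 47.8. LD was highest on both scales, HD was lowest in RPM, and IL-8 and HD were lowest in TPM. In LD, HIF1A and NDRG1 held 237 and 195 of the 543 member reads.

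The machinery around HIF1A comprised 17 genes for its paralogs, partners, hydroxylases, ligase subunits and coactivators, and all 17 passed the filter. Against LD, 1 was higher and 1 lower in IL-6, 1 and 2 in IL-8, 1 and 6 in RM, and in HD 6 and 5. Of all genes, 9.84% were higher and 7.47% lower in IL-6, 7.99% and 16.4% in IL-8, 6.44% and 20.4% in RM and 61.9% and 17.9% in HD. Median differences of the list were -0.01, -0.07, -0.80 and -0.25. All genes had 0, 0, 0 and 1.86 and the well-read genes had -0.01, -0.33, -0.49 and -0.59, so in HD the list lay below the one and above the other. The RM median stayed negative under every scaling tried but shrank to -0.16. By TPM scaled to the median ratio the RM counts were 4 higher and 1 lower, beside 12.9% and 11.4% of all genes.

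Among the most abundant of this list was EGLN2, a HIF prolyl hydroxylase. EGLN2 had 96.7, 84.1, 152, 34.5 and 20.7 TPM, so RM and HD were lowest as for HIF1A. RBX1, the ring subunit of the VHL ligase, had 118, 67.6, 59.7, 41.8 and 35.6 TPM, highest in LD. TCEB2, the elongin B subunit of the same ligase, did not follow that order, with 114, 184, 150.2, 149.9 and 73.8 TPM.

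The gene of this list past the upper threshold in RM was a coactivator. CREBBP, a histone acetyltransferase that HIF recruits, had 202, 144, 118, 425 and 28 reads in library order, with an RM to LD ratio of 2.41 (2.04 to 2.87) and a log2(TPM + 1) difference of 1.07. CITED2, which competes with HIF for that coactivator, had 44.8, 46.5, 98.1, 85.3 and 11.5 TPM, highest in IL-8. SIAH1, a ligase that targets HIF hydroxylases, had 13, 0, 2, 0 and 2 reads, so RM (upper limit of 0.376 on the ratio to LD) shared its low count with IL-6 (upper limit 0.490) and IL-8 (0.226, 0.0248 to 0.998).

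In HD, the extremes of this list lay with few reads. SIAH2, the sister ligase, had 112 reads in LD against 1 in HD, which is -3.59 on the log2(TPM + 1) scale. HIF3A, a HIF paralog, had 2 reads in LD, 1 to 6 in the other low-density libraries and 23 in HD, which is 4.28 on that scale. The HIF3A value belongs to a library in which 61.9% of genes were higher.

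Glycolytic targets of HIF comprised 20 genes for glucose uptake and breakdown. In IL-6, 1 was higher and 0 lower, in IL-8, 0 and 2, in RM, 0 and 3, and in HD, 1 and 12. Over all genes, 9.84% were higher and 7.47% lower in IL-6, and 7.99% and 16.4% in IL-8. These shares were 6.44% and 20.4% in RM and 61.9% and 17.9% in HD. The RM share of 15.0% lower is under the 20.4% of all genes, whereas the HD share of 60.0% lower stands beside 17.9% of all genes and 41.7% of the well-read genes. Their medians were -0.08, -0.06, -0.55 and -1.26. The HD median stayed between -2.17 and -1.26 under every scaling, whereas the RM median turned to 0.25 under count size factors. The 10 housekeeping genes had 0 higher and 5 lower in HD, with a median of -0.99.

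The most abundant glycolytic genes had their lowest level in HD. GAPDH, the textbook glycolytic dehydrogenase, had 8545, 9704, 9755, 9566 and 3213 TPM. ENO1 (enolase) had 2690.2, 2773, 2368, 2777 and 548 TPM, ALDOA (aldolase) 1469, 1656, 1290.0, 1185 and 374 TPM, and TPI1 (triosephosphate isomerase) 616, 602, 632, 417 and 362 TPM. At low density TPI1 was lowest in RM, at 0.752 (0.687 to 0.824) of LD in reads.

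The widest differences lay on less abundant genes. SLC2A1, the main glucose transporter of HIF-driven cells, had 99, 61, 24, 148 and 7 reads in library order. Its ratio to LD was 1.72 (1.32 to 2.24) in RM but 0.356 (0.218 to 0.561) in IL-8 and 0.259 (0.101 to 0.553) in HD. ALDOC, a second aldolase, had 42, 17, 50, 2 and 5 reads, with an RM minus LD difference in log2(TPM + 1) of -3.36. SLC16A3, the lactate exporter, had 650, 289, 669, 406 and 11 reads, with an HD to LD ratio of 0.0619 (0.0308 to 0.112). HK2, a hexokinase, was the list's gene higher in HD by more than the threshold, with 41, 25, 47, 22 and 28 reads and with 4.04 TPM in LD and 15.9 TPM in HD.

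The other hypoxia targets, 28 genes with 25 past the filter, were counted in the same way. Against LD, 1 was higher and 5 lower in IL-6, 3 and 8 in IL-8, 1 and 12 in RM, and 6 and 9 in HD. Lower calls also outnumbered higher ones over all genes in IL-8 (16.4 against 7.99%) and RM (20.4 against 6.44%), but not in IL-6 (7.47 against 9.84%) or HD (17.9 against 61.9%). Over the well-read genes they did so in HD too (41.7 against 26.6%). There the shares were 29.04 against 9.59% in RM, 21.0 against 9.70% in IL-8 and 7.30 against 8.16% in IL-6. The medians were -0.33, -0.78, -0.81 and -0.22, negative under every scaling tried, beside -0.01, -0.33, -0.49 and -0.59 for the well-read genes. By count size factors 5 of the 25 were lower in RM, beside 6.82% of all genes at that scaling.

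The most abundant of these were not uniform. HMOX1, the heme-degrading enzyme, had 1396, 1461, 1435, 1157 and 90.6 TPM, so only HD was far below LD. BHLHE40, a transcriptional repressor, had 61.6, 65.3, 128, 13.4 and 11.1 TPM. It was highest in IL-8, and its RM to LD ratio of reads was 0.242 (0.177 to 0.324). STC2 (stanniocalcin) had 66.2, 44.7, 38.5, 46.3 and 13.2 TPM and LOXL2, a collagen crosslinking oxidase, 47.3, 34.6, 38.8, 27.8 and 14.6 TPM, both highest in LD.

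Single genes of this list also ran both ways. KDM4B, an oxygen-dependent histone demethylase, had 159, 61, 103, 375 and 64 reads, with an RM to LD ratio of 2.71 (2.24 to 3.28). JMJD6, an oxygen-dependent hydroxylase, had 44, 25, 13, 5 and 23 reads. Its ratio to LD was 0.130 (0.0403 to 0.328) in RM and 0.434 (0.214 to 0.820) in IL-8. EFNA1, an ephrin ligand, had 45, 24, 5, 48 and 37 reads and 26.7 TPM in LD against 192 TPM in HD.

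**Figure D3:**
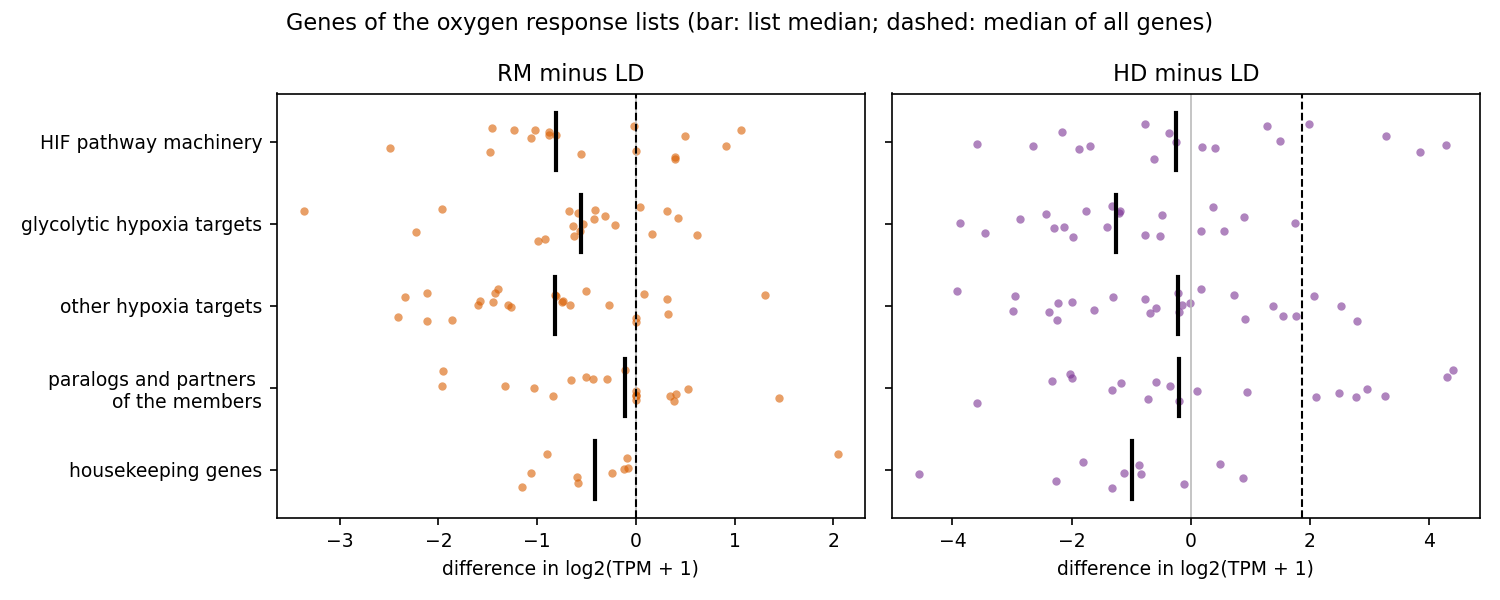
Difference in log2(TPM + 1) from LD (horizontal axis) in RM (left) and HD (right) for the genes of 5 lists past the low-value filter, 1 point per gene with vertical scatter added for visibility. Black bars are list medians and the dashed line is the median of all genes, at 0 in RM and 1.86 in HD (-0.49 and -0.59 over well-read genes, not drawn). The glycolytic targets have their median at -0.55 in RM and -1.26 in HD, and the HIF pathway machinery at -0.80 and -0.25.

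Paralogs, receptors and partners of the members comprised 20 genes with 19 past the filter. Against LD, 3 were higher and 0 lower in IL-6, 2 and 3 in IL-8, 1 and 4 in RM, and 7 and 6 in HD. The lower shares of 15.8% in IL-8 and 21.1% in RM were near the 16.4% and 20.4% of all genes. With IL-6, 15.8% of the list was higher (3 genes), beside 9.84% of all genes. Its lower count of 0 stood beside 7.47%. Higher shares for IL-8 and RM were 10.5% and 5.26%, beside 7.99% and 6.44%. For HD, the list had 36.8% higher and 31.6% lower. All genes had 61.9% and 17.9% there, and the well-read genes had 26.6% and 41.7%. P4HB, the shared subunit of the collagen prolyl hydroxylases, had 600.2, 495, 635, 444 and 48.8 TPM, and PLOD3, a lysyl hydroxylase, 147, 151.1, 151.3, 136 and 28.4 TPM. Both were lowest in HD, unlike PLOD2.

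Of the growth factors related to VEGFA, PGF and VEGFB were higher per length than VEGFA in every library. PGF had 134, 148, 210.4, 179 and 59.6 TPM and VEGFB 84.6, 84.4, 37.7, 69.1 and 33.2 TPM. NRP1, a VEGF co-receptor, had 195, 133, 265, 223 and 29 reads. Its ratio to LD was 2.00 (1.65 to 2.41) in IL-8 and 1.31 (1.078 to 1.60) in RM. FLT1, a VEGF receptor of endothelial cells, had 2, 0, 4, 0 and 20 reads, so most came from HD, where the endothelial markers were also highest. NDRG4, a paralog of NDRG1, had 38, 24, 21, 5 and 7 reads, so it was read in the libraries where NDRG1 was not.

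The pattern of HIF1A over the 5 libraries was closest to that of PFKP, DDB2, MMP14, TP53I3 and ZC3H11A among 3596 genes with at least 10 reads in every library. Likeness was the root mean square difference of log2(TPM + 1) after each gene was centred on its own mean, and it was 0.167 for PFKP, 0.186 for DDB2 and 0.229 for the other 3. PFKP, a phosphofructokinase of glycolysis, had 109, 72.1, 70.8, 22.4 and 24.1 TPM. MMP14, a membrane collagenase, had 235, 203, 181, 85.3 and 64.3 TPM. DDB2, a DNA damage recognition protein, had 135, 106, 83.5, 44.2 and 33.2 TPM. All were highest in LD and had RM and HD as their lowest libraries.

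**Figure D4:**
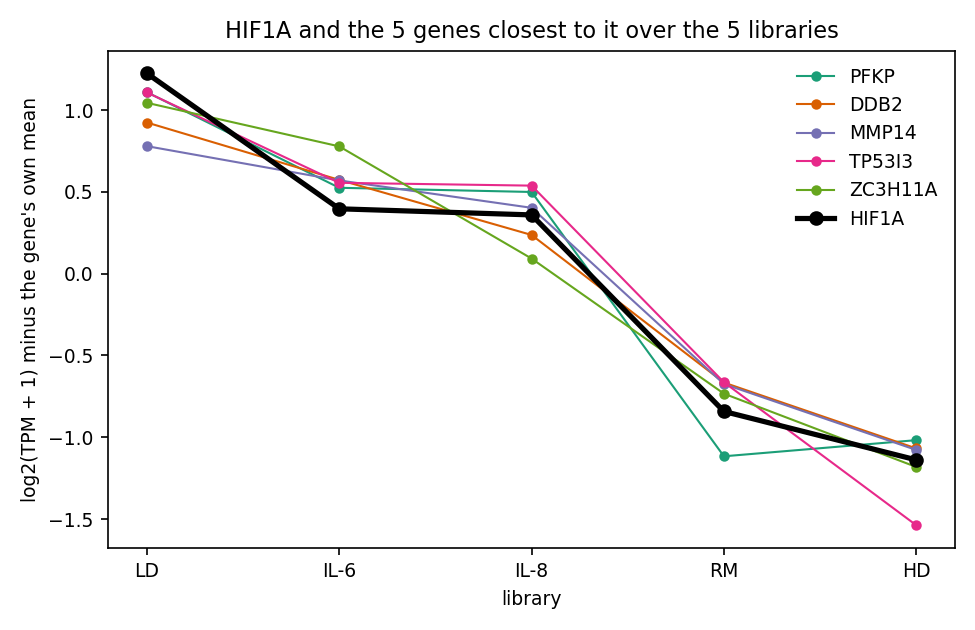
log2(TPM + 1) minus each gene's own mean over the libraries (vertical axis) by library (horizontal axis) for HIF1A (thick line) and the 5 genes closest to it, with 1 value per library and lines that only join values of 1 gene. All 6 genes are highest in LD and have RM and HD as their lowest libraries, and PFKP is closest, at a root mean square difference of 0.167.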

How the data were processed

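Total RNA of HT1080 cells was primed with oligo-dT, amplified with phi29 polymerase and sequenced, 1 library for each of 5 conditions. Per the submitters' processing notes the authors used CASAVA 1.4, FastQC, Bowtie2 2.3.1 and RSEM 1.2.25 with hg19. The annotation is not given in the sources used here. The deposited tables hold a read count and a TPM value per gene. The counts as deposited are whole numbers.

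Deposited TPM was rescaled to 1e+06 per library, and differences were taken on log2(TPM + 1), which understates the change of low genes, over genes that reached 1 TPM anywhere. A gene counted as higher or lower at 1 log2 unit. Ratios of counts were taken per read outside RNA5-8S5 with exact conditional 95% limits. The code for these limits was run on simulated Poisson counts, which hold counting error only, so it does not show how they perform on these libraries. Depth is given in the report. The alternatives were pseudocounts of 0.1 and 5, RNA5-8S5 left out of the scaling, median-ratio and TMM (edgeR 4.0.16) scaling, a threshold of 2, no filter and at least 10 reads in both libraries. Members, lists and tests were chosen with earlier results of these data known. From each list the text names the 4 genes highest in median TPM and those with the largest difference each way in RM and in HD among genes with at least 10 reads in the higher library. The 5 genes nearest to HIF1A follow the measure given in the report. Positions are from GENCODE and promoters from RefSeq. The scripts ran in Python 3.11.15 (scipy 1.17.1).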

Additional observations from a re-analysis of the deposited data

How the results depend on the processing

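Of the member counts past 1 log2 unit, these moved by more than 1.5 times. A pseudocount of 0.1 gave 2 higher in IL-6 and 2 in IL-8. A pseudocount of 5 gave 0 higher in IL-6, 1 lower in RM and 0 higher in HD. Without RNA5-8S5 in the scaling 1 was higher in IL-8 (9.39% of all genes). Median-ratio scaling of TPM gave 2 higher in IL-8 (12.1%), 1 higher in HD (57.3%) and 1 with HD outside the low-density libraries. RPM gave 0 higher in IL-6 (13.1%), 1 in IL-8 (10.5%) and 1 with HD outside. TMM-scaled counts gave 0 higher in IL-6 (4.91%), 0 higher in HD (38.7%) and 1 with HD outside. Count size factors gave 0 higher in IL-6 (4.19%), 1 lower in RM (6.82%), 0 higher in HD (48.9%) and 1 with HD outside. Percentages are shares of all genes at the same scaling and were not computed for the other settings. The member with HD outside was HIF1A each time, below the low-density libraries. A threshold of 2 gave 0 higher in IL-6, 1 lower in RM and 0 higher in HD. With at least 10 reads in both libraries, 0 were higher or lower in IL-6, 0 lower in IL-8 and 0 higher or lower in HD, since NDRG1, EGLN3 and ANKRD37, and in HD also HIF1A and P4HA1, had under 10 reads in 1 of the libraries compared. No member past the threshold changed direction under any of these settings.

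The HIF1A difference from LD ranged from -2.17 to -1.36 in RM, -3.37 to -1.92 in HD, -0.88 to -0.73 in IL-6 and -0.89 to -0.40 in IL-8. The median of all genes in HD ranged from 0.46 to 2.94 over these settings, but over the genes with a mean of at least 20 reads it was -0.59, so its sign depends on the genes included. With 1 library per condition no library could be left out, and no paired analysis was possible because each condition has 1 library. EGLN3 and ANKRD37 rest on at most 5 reads in any library, so their calls are limited by depth.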

Other observations

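Some genes beside the members held values that the counts above do not show, and they were chosen after their values were seen. BNIP3L, the mitophagy receptor related to BNIP3, was lower than LD in every library, with 256, 84, 54, 91 and 8 reads in library order. Its ratio of reads to LD was 0.490 (0.379 to 0.630) with IL-6, 0.310 (0.227 to 0.417) with IL-8, 0.408 (0.317 to 0.520) with RM and 0.114 (0.0488 to 0.229) for HD. FAM162A, a mitochondrial protein gene of the hypoxia response, had 53, 9, 20, 11 and 1 reads in the same order, with 49.6, 11.1, 25.2, 10.7 and 5.54 TPM.

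P4HA3, a paralog of P4HA1, was higher in both single-cytokine libraries and in HD, with 5, 30, 24, 7 and 15 reads in library order. The ratio to LD was 8.97 (3.45 to 29.6) in IL-6. In IL-8 it was 7.05 (2.64 to 23.7) and in HD 11.0 (3.79 to 38.6). IGFBP3, a growth factor binding protein, had 36 reads in IL-6, 1 in HD and 0 in LD, IL-8 and RM. No replicate library bears on any of these values.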
